A study of Mus musculus with 21 samples.

Results

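Inversional joins within the μ unit are joins in which a broken end at the 5′ side of the Sμ switch region was joined to another point of the same unit with the DNA in between turned round. They were taken as every junction on chromosome 12 of the mouse build mm9 whose prey, the joined sequence, read on the + strand between positions 114632500 and 114664909. The rule found 1045 such joins among 40530 junctions, 2.58% of all, and they made up 12.9% of the 8088 joins of the unit. The other 7043 joins of the unit read on the − strand and are deletional.

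Class switch recombination replaces the constant region of an antibody heavy chain by joining Sμ to a switch region further downstream. The enzyme AID starts it by deaminating cytosines, most often in the motif AGCT, which is its own reverse complement and is repeated many times in switch regions. End joining can remove the DNA between a pair of breaks, which is a deletional join, or turn it round, which is an inversional join, and breaks within Sμ can also be joined to each other. Ends can be joined directly, over a few bases that both ends share (microhomology), or with extra bases at the join (insertions).

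CSR-HTGTS-seq reads from a fixed bait end in 5′ Sμ into the sequence joined to it. It was run on genomic DNA of CH12F3, a B lymphoma line of the mouse whose switching goes mainly to IgA. The cells had been stimulated for 72 h with TGF-β, IL4 and anti-CD40. All 5 groups carry the deletion from Sμ to Sα on the non-coding IgH allele. i3CBEc-3CBEdel (3 libraries) carries 3 inserted CTCF-binding elements (CBEs) and lacks the 3′CBEs, a cluster of such elements beyond the constant genes. Iadel-i3CBEc (3 libraries) carries the insertion of 3 CBEs downstream of Cγ2a in cells that lack Iα, the start of germline transcription through Sα. i3CBEc (3 libraries) carries the insertion, labelled as convergent in orientation, with Iα in place. Iadel (6 libraries) lacks Iα and has no insertion, and NCdel (6 libraries) is the line with the non-coding allele deletion alone. The labels do not say whether libraries of a group are separate clones or cultures, so the p-values measure the spread between these libraries, which may be technical.

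A library held 1180 to 3513 junctions, of which 12 to 125 were inversional μ joins. Iadel-i3CBEc, 3 of the Iadel libraries and 3 of the NCdel libraries shared 1 sequencing run by their read names. All i3CBEc libraries were in a run of their own, and each i3CBEc-3CBEdel library was in a run of its own, so that for these groups run and genotype cannot be told apart.

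The bait, as the reads give it on the − strand (chr12:114664780-114664909, mm9), is shown because every join starts from it, with AGCT in capitals. The second sequence is the stretch of 300 bases with the most inversional joins (chr12:114663454-114663753, mm9), given on the + strand, the strand on which inversional prey reads. Its letters are the most frequent letter of the prey reads at each position, with at least 250 reads behind each.
Bait: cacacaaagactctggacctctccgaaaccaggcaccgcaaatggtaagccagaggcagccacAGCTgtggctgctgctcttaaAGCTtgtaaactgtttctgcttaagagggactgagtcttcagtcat
Densest stretch: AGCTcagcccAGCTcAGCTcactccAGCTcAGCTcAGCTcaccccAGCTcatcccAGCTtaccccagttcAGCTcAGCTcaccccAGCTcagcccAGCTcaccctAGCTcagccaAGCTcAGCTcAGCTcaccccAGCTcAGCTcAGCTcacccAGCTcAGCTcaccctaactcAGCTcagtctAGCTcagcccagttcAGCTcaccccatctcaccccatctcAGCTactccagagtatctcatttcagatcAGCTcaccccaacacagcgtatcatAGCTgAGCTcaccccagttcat
This stretch holds AGCT 28 times. It took 223 of the 1045 inversional joins (21.3%), against 1217 of the 7043 deletional joins of the unit (17.3%).

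Inversional μ joins took a larger share of all junctions in every library with inserted CBEs than in any library without them. The share was 4.27%, 6.32% and 4.68% in i3CBEc-3CBEdel, 3.43%, 4.44% and 3.87% in Iadel-i3CBEc, and 3.38%, 4.06% and 3.39% in i3CBEc. The lowest, median and highest library were at 1.19%, 1.59% and 2.43% in Iadel and at 0.739%, 1.77% and 2.70% in NCdel. The lowest value, in NCdel library 1, rests on 12 joins and has a 95% Wilson interval of 0.423% to 1.29%. The highest, in i3CBEc-3CBEdel library 2, rests on 125 joins and has an interval of 5.33% to 7.48%. The intervals cover counting error only, since PCR copies cannot be told from separate molecules here. The split holds for division by all junctions. With junctions of the IgH window as the divisor (250 kb downstream and 20 kb upstream of the bait), Iadel came close to i3CBEc. Its mean was then 2.57 percentage points above that of NCdel, against 3.00 points for i3CBEc.

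**Figure D1:**
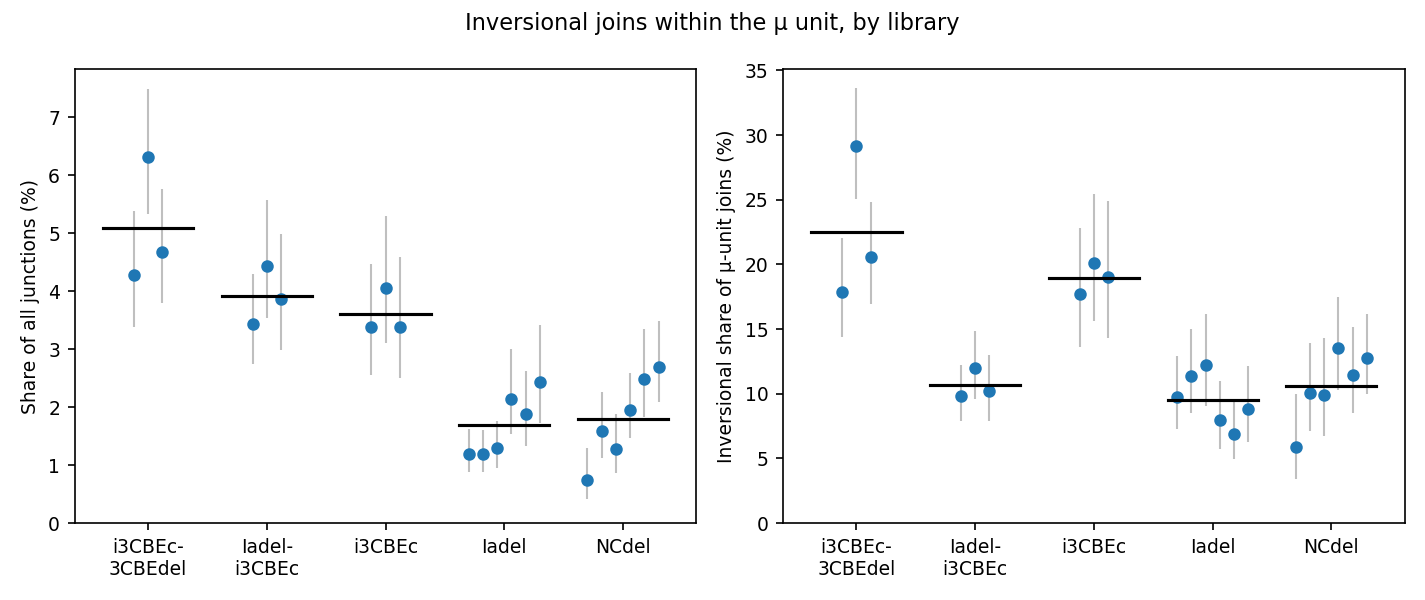
Each point is a library, with its 95% Wilson interval as a grey line and the group mean as a black bar. The left panel gives inversional μ joins as a percent of all junctions, and the right panel gives them as a percent of the joins of the μ unit. All 9 libraries with inserted CBEs lie above all 12 without them on the left (lowest 3.38%, against a highest of 2.70%). On the right, Iadel-i3CBEc lies between 9.86% and 11.99%, within the range of Iadel and NCdel.

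With Iα in place, the share of inversional μ joins rose with the insertion, to 3.61% ± 0.389 in i3CBEc (SD, n = 3), against 1.79% ± 0.740 in NCdel (n = 6). This is a 2.02-fold difference, with no overlap between the libraries (two-sided exact permutation p = 0.0119, the smallest that 3 against 6 libraries allow, adjusted p = 0.0298 over 5 measures). The orientation of μ joins moved as well. Inversional joins made up 17.7%, 20.1% and 19.0% of the μ joins of the i3CBEc libraries, against 5.85% to 13.5% in NCdel. The means were 19.0% ± 1.17 in i3CBEc and 10.6% ± 2.73 in NCdel, a 1.79-fold difference (exact permutation p = 0.0119, adjusted p = 0.0298). Deletional μ joins took 15.4% ± 0.901 of all junctions in i3CBEc and 14.6% ± 3.38 in NCdel. NCdel values also differed by sequencing run. By run, the NCdel share averaged 1.20% (libraries 1 to 3), 1.95% (library 4) and 2.59% (libraries 5 and 6). Inversional joins made up 8.60%, 13.5% and 12.1% of the μ joins there, in the same order. All i3CBEc libraries came from a further run, and the part of the run in both differences was not tested. With any 1 library left out, the differences stayed between 1.59 and 2.00 percentage points in share and between 7.42 and 8.97 in orientation. The adjusted exact permutation p was then 0.0893 without i3CBEc library 1, 2 or 3, where 2 against 6 libraries cannot go below p = 0.0357 before adjustment, and also without NCdel library 2, 3 or 4. Both calls missed it when joins within 200 bases of the bait end were left out (adjusted exact permutation p = 0.0595), with differences of 1.83 points in share and 9.97 in orientation. Among junctions of the IgH window (250 kb on the downstream and 20 kb on the upstream side of the bait) the difference in share was 3.00 points.

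In cells without Iα, neither the share nor the orientation passed the threshold, although the shares did not overlap. The share was 3.91% ± 0.508 in Iadel-i3CBEc (n = 3), against 1.69% ± 0.536 in Iadel (n = 6). The means differed 2.32-fold (exact permutation p = 0.0119, the smallest that 3 against 6 libraries allow, adjusted p = 0.0595). The other measures had an exact permutation p of 0.286 or more, which left the adjusted p at 0.0595. In i3CBEc against NCdel the same p was adjusted to 0.0298, because orientation reached it as well. The missed threshold is therefore no evidence of a smaller effect on the share without Iα. The difference in share between Iadel-i3CBEc and Iadel was 1.45 percentage points with the Sμ block alone. Inversional joins made up 10.7% ± 1.14 of the μ joins in Iadel-i3CBEc and 9.49% ± 2.02 in Iadel (adjusted exact permutation p = 0.675).

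The Iadel libraries split by sequencing run, and the Iadel-i3CBEc libraries were all in 1 of these runs. Within that run, with 3 libraries a group, the shares were 3.43% to 4.44% in Iadel-i3CBEc and 1.88% to 2.43% in Iadel (difference 1.76 points). Inversional joins there made up 9.86% to 11.99% of μ joins in Iadel-i3CBEc and 6.90% to 8.79% in Iadel (difference 2.80 points, against 1.18 over both runs). Neither pair of ranges overlaps, and each difference had an exact permutation p of 0.1, the smallest that 3 against 3 libraries allow. Deletional μ joins took 31.3% to 34.1% of all junctions in Iadel-i3CBEc, 24.8% to 25.3% in Iadel in the same run and 9.31% to 11.1% in Iadel in the other run.

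The effect of the insertion on orientation differed between the 2 backgrounds. It was 1.18 percentage points in cells without Iα and 8.36 in cells with Iα. The difference of -7.18 points passed a permutation test of the interaction (p = 0.00354, adjusted p = 0.00709 over 2 measures). Labels were permuted within each background after the common insertion effect, estimated from these data, was taken out, so the test is approximate. With only the Iadel and NCdel libraries of the shared run, the effects were 2.80 points without Iα and 10.4 with it. The difference was -7.56 points (same permutation test, p = 0.005, the smallest this setting allows, adjusted p = 0.01), in a setting added after the data were seen. The i3CBEc libraries are in no shared run, so the part of the sequencing run in this difference cannot be told apart from that of the genotype. For the share of all junctions the effects were 2.22 points without Iα and 1.82 points with it, and their difference of 0.405 did not pass (same permutation test, adjusted p = 0.487). It was -0.643 points with the libraries of the shared run (same permutation test, adjusted p = 0.175).

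A direct comparison of the groups with inserted CBEs has 3 libraries a side, and an exact permutation test cannot go below p = 0.1. Iadel-i3CBEc libraries had 9.86%, 11.99% and 10.2% inversional joins among μ joins, all below the i3CBEc libraries at 17.7% to 20.1% (difference -8.28 percentage points, exact permutation p = 0.1, and -12.9 points with the Sμ block alone). i3CBEc-3CBEdel libraries had 17.9%, 29.1% and 20.6%, a range that overlaps that of i3CBEc (difference 3.59 points, exact permutation p = 0.4). That difference was 0.291 points without i3CBEc-3CBEdel library 2 and 5.91 without library 1. Their shares of all junctions did not overlap those of i3CBEc, with means of 5.09% ± 1.08 in i3CBEc-3CBEdel and 3.61% ± 0.389 in i3CBEc (difference 1.48 points, exact permutation p = 0.1). It was 0.869 points without i3CBEc-3CBEdel library 2, and with the Sμ block alone it was 0.467 points (exact permutation p = 0.9).

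Between Iadel and NCdel no measure passed the threshold over all libraries. The share was 1.69% ± 0.536 in Iadel and 1.79% ± 0.740 in NCdel (n = 6 each, adjusted exact permutation p = 0.933), and inversional joins made up 9.49% ± 2.02 of μ joins in Iadel and 10.6% ± 2.73 in NCdel (adjusted p = 0.933). In the shared run the share was 1.88% to 2.43% in Iadel and 0.739% to 1.60% in NCdel, without overlap and 0.948 points higher in Iadel (3 libraries each, exact permutation p = 0.1, the smallest possible). The Iadel libraries of the other run were at 1.19% to 1.30%. The share also depends on what it is divided by. Among junctions of the IgH window alone, inversional μ joins were 2.57 percentage points higher in Iadel than in NCdel, and that difference passed (adjusted exact permutation p = 0.0108).

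The + strand share elsewhere gives the scale of these values. On other chromosomes it was 55.4% ± 3.78 in i3CBEc-3CBEdel, 50.9% ± 2.48 in Iadel-i3CBEc, 49.3% ± 2.48 in i3CBEc, 50.7% ± 2.01 in Iadel and 50.5% ± 2.46 in NCdel. Acceptor joins were counted as all joins from position 114492000 up to the μ unit, with the DNA between the downstream switch regions included. Among them the + strand share was 19.9% ± 1.08 in i3CBEc-3CBEdel, 17.1% ± 4.73 in Iadel-i3CBEc, 19.5% ± 1.24 in i3CBEc, 4.72% ± 1.55 in Iadel and 2.82% ± 0.939 in NCdel. In Iadel and NCdel every library had a higher inversional share among μ joins than any library of its group had among acceptor joins. In Iadel-i3CBEc the order was the other way round, at 9.86% to 11.99% of μ joins and 12.3% to 21.7% of acceptor joins. These differences between places were not tested.

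**Figure D2:**
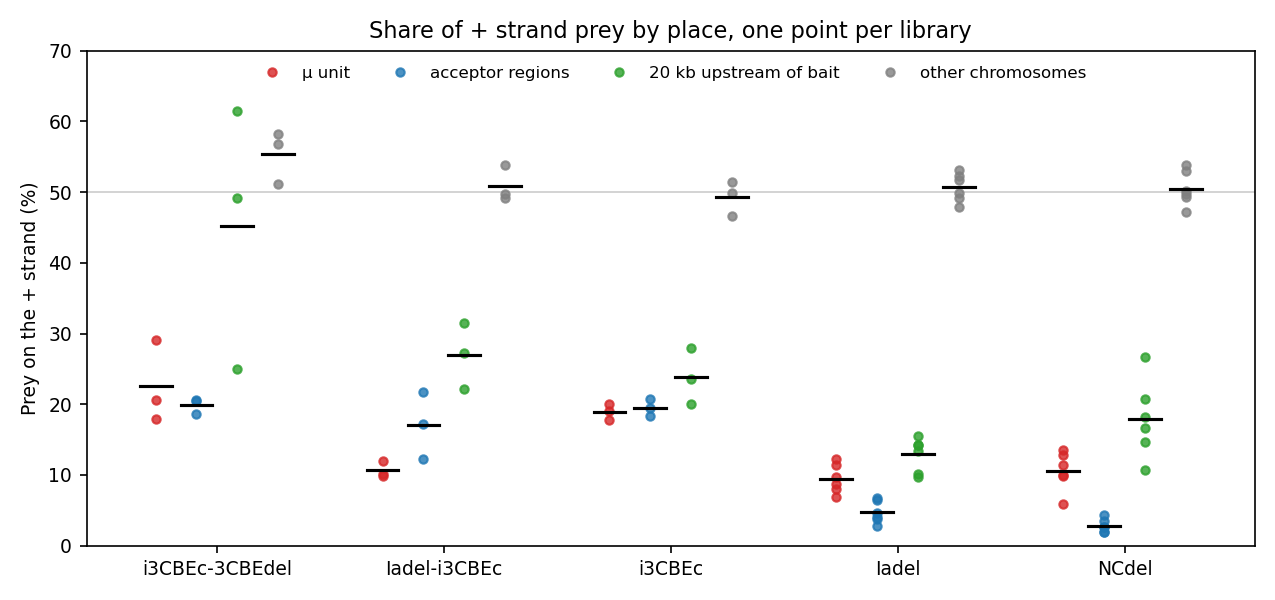
Percent of prey on the + strand by place, with a point for each library and a black bar for the group mean. Other chromosomes have group means of 49.3% to 50.9%, apart from i3CBEc-3CBEdel at 55.4%. The 20 kb upstream of the bait (green) range from 25% to 61.5% in the i3CBEc-3CBEdel libraries. The μ unit (red) has means of 22.5% in i3CBEc-3CBEdel and 19.0% in i3CBEc, and of 10.7% or less in Iadel-i3CBEc, Iadel and NCdel. Acceptor regions (blue), which here include the DNA between the downstream switch regions, have means of 17.1% or more in all 3 groups with inserted CBEs.

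Pooled over all libraries, inversional joins were rare next to the bait and took a larger share than deletional joins between 200 and 1000 bases from it. Distance is counted from the last bait base of the join to the first prey base. Pooled over libraries, the median distance of inversional joins was 1295 bases, with quartiles of 794 and 1750 bases, and the farthest lay at 10962 bases. Within 200 bases of the bait end, or beyond it, lay 17 of 1045 inversional joins (1.63%), against 1262 of 7043 deletional joins (17.9%). Whether a filter of the deposited tables acted on joins next to the bait is not known from the sources used here. Between 200 and 500 bases the order turned round, with 133 inversional joins (12.7%) and 345 deletional joins (4.90%). Between 500 and 1000 bases lay 189 inversional joins (18.1%) and 652 deletional joins (9.26%). In i3CBEc the order in this bin was the other way round, with 13.8% of inversional and 15.2% of deletional joins. Every other group had the pooled order there. From 1000 to 1500 bases, the bin with the most of both kinds, the shares were 29.4% of inversional and 27.8% of deletional joins. Only 16 inversional joins lay beyond 2500 bases, 9 of them before 3000 bases.

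**Figure D3:**
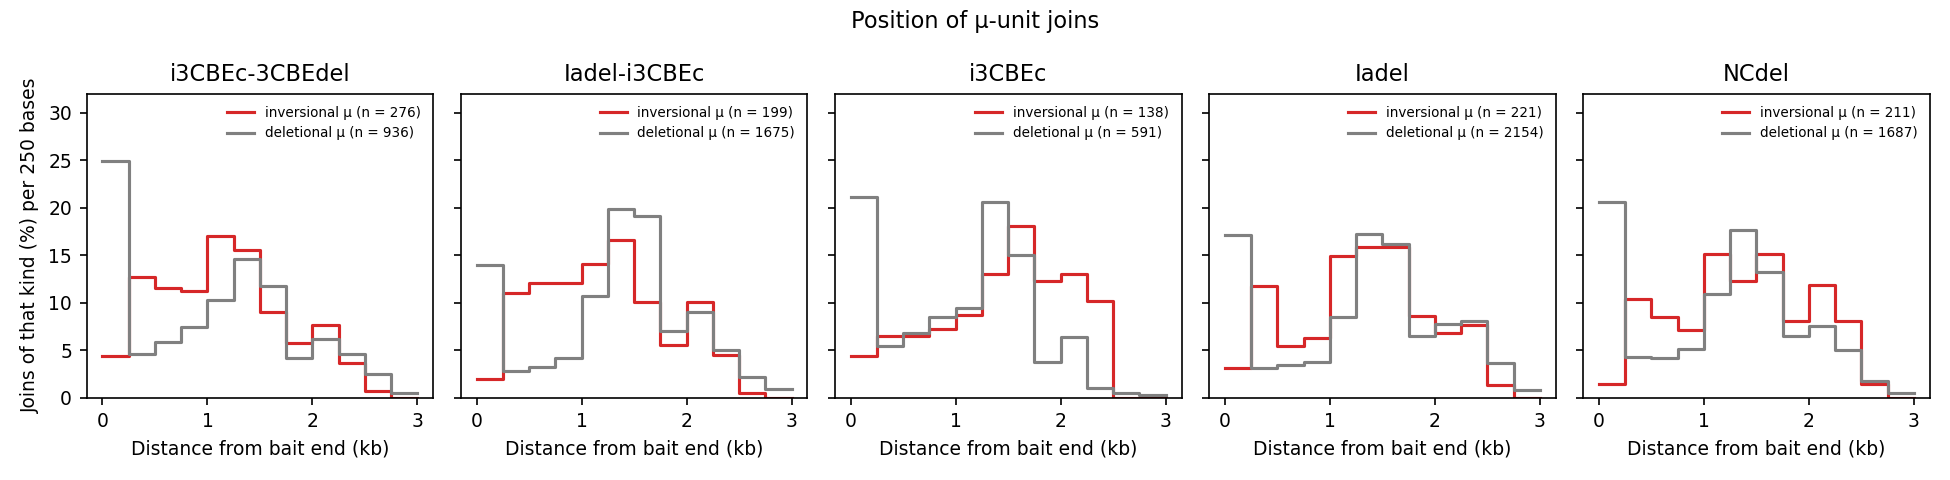
Joins of each kind (%) per 250 bases of distance from the bait end, by group, for inversional (red) and deletional (grey) μ joins, pooled over the libraries of a group. In every group the first bin is high for deletional joins and low for inversional joins, and apart from that bin the fullest bin of either kind lies between 1 and 2 kb.

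Over the 21 libraries the median distance was 1333 ± 166 bases for inversional joins and 1335 ± 123 bases for deletional joins (mean difference -1.67 bases, two-sided sign-flip permutation p = 0.970). When joins within 200 bases were left out of both kinds, inversional joins lay 126 bases closer to the bait (difference -126.4, adjusted sign-flip permutation p = 0.0135).

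The median distance of inversional joins was longest in i3CBEc, at 1634, 1448 and 1563.5 bases in its libraries. It was 1113, 1283 and 1032 bases in i3CBEc-3CBEdel, and 1369, 1140 and 1186.5 bases in Iadel-i3CBEc. Neither group overlaps i3CBEc. The differences from i3CBEc were -406 bases for i3CBEc-3CBEdel and -317 bases for Iadel-i3CBEc (exact permutation p = 0.1 for each, the smallest possible). As mean distances, Iadel-i3CBEc differed from i3CBEc by -188 bases (exact permutation p = 0.3), and with the Sμ block alone i3CBEc-3CBEdel differed by -258 bases (p = 0.1). Iadel ranged over 1207 to 1617 bases and NCdel over 1133.5 to 1459 bases. The distance was 192 bases longer in i3CBEc than in NCdel, which did not pass (adjusted exact permutation p = 0.0992), nor did any other comparison of distance between groups. Within groups, inversional joins lay farther out than deletional joins in 3 of 3 libraries of i3CBEc (mean difference 319.5 bases), in 1 of 3 of i3CBEc-3CBEdel (-29 bases) and in 0 of 3 of Iadel-i3CBEc (-208 bases). In Iadel they did so in 1 of 6 libraries (-104 bases) and in NCdel in 4 of 6 (57.2 bases).

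The prey letters near the bait differ from those further in. By majority letters of the prey reads, the stretch from 200 to 500 bases from the median bait end (114664846) holds 1 AGCT and has a GC content of 33.7%. From 500 to 1000 bases there are 1.4 AGCT per 100 bases, from 1000 to 1500 bases 8.6, from 1500 to 2000 bases 14.6 and from 2000 to 2500 bases 10.8. The bins from 200 to 1000 bases, which are poor in AGCT, held 322 inversional joins (30.8%), against 997 deletional joins (14.2%). Among joins without inserted bases between 211 and 2590 bases from the median bait end, 358 of 671 inversional joins (53.4%) lay in an AGCT or within 2 bases of one, against 2192 of 3478 deletional joins (63.0%). Of all 2380 positions there, 50.2% did so. That share counts every position equally and was not matched to the distances of the joins. Since the kinds differ in their share of the AGCT-poor bins, these percents do not show a preference for or against AGCT in either kind. AGCT reads the same on both strands, so the motif was counted once.

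Of the 1045 inversional joins, 558 (53.4%) had microhomology, 142 (13.6%) were blunt and 345 (33.0%) had inserted bases. Among deletional joins the shares were 48.6%, 19.7% and 31.7%. An example of each type follows, at the position with the most inversional joins of that type, read 5′ to 3′ from bait into prey. The capitals mark the shared bases in the first, the whole prey part in the second and the inserted bases in the third.
Microhomology: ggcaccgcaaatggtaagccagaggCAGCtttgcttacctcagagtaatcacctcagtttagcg
Blunt: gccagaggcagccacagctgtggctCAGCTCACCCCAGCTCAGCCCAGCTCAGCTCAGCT
Insertion: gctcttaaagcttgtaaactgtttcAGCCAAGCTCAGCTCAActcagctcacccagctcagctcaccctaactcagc
The prey of these joins starts at positions 114663918, 114662693 and 114663596, in that order, and the bait ends at 114664850, 114664837 and 114664809. For 26 of the 31 joins at 114663596, other prey reads aligned there show the inserted letters as part of the prey. The insertion example is therefore not typical of insertions elsewhere in the unit.

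Microhomology was longer at inversional than at deletional μ joins. Over joins without insertion, with blunt joins counted as 0, the mean length was 2.24 ± 0.368 bases for inversional joins and 1.75 ± 0.125 bases for deletional joins of the same libraries (SD, n = 21). The difference of 0.484 bases was seen in 18 of 21 libraries (sign-flip permutation p = 8e-05, adjusted p = 0.00024 over 3 measures). It was 0.317 bases with joins within 200 bases of the bait left out (adjusted p = 0.00354 by the same sign-flip permutation test). By group the difference was 0.697 bases in i3CBEc-3CBEdel, 0.453 in Iadel-i3CBEc, 0.618 in i3CBEc, 0.254 in Iadel and 0.555 in NCdel. Microhomology of 4 or more bases occurred in 173 inversional joins (16.6%), against 734 deletional joins (10.4%), and the longest inversional one had 8 bases.

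Inversional μ joins also had longer microhomology than inversional joins of the α unit. In the 12 libraries of i3CBEc-3CBEdel, i3CBEc and NCdel, where α is joined often, the means were 2.36 ± 0.398 bases at μ and 1.80 ± 0.344 at α. The difference of 0.556 bases was seen in 11 of 12 libraries (sign-flip permutation p = 0.00152, adjusted p = 0.00152 over 2 measures).

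**Figure D4:**
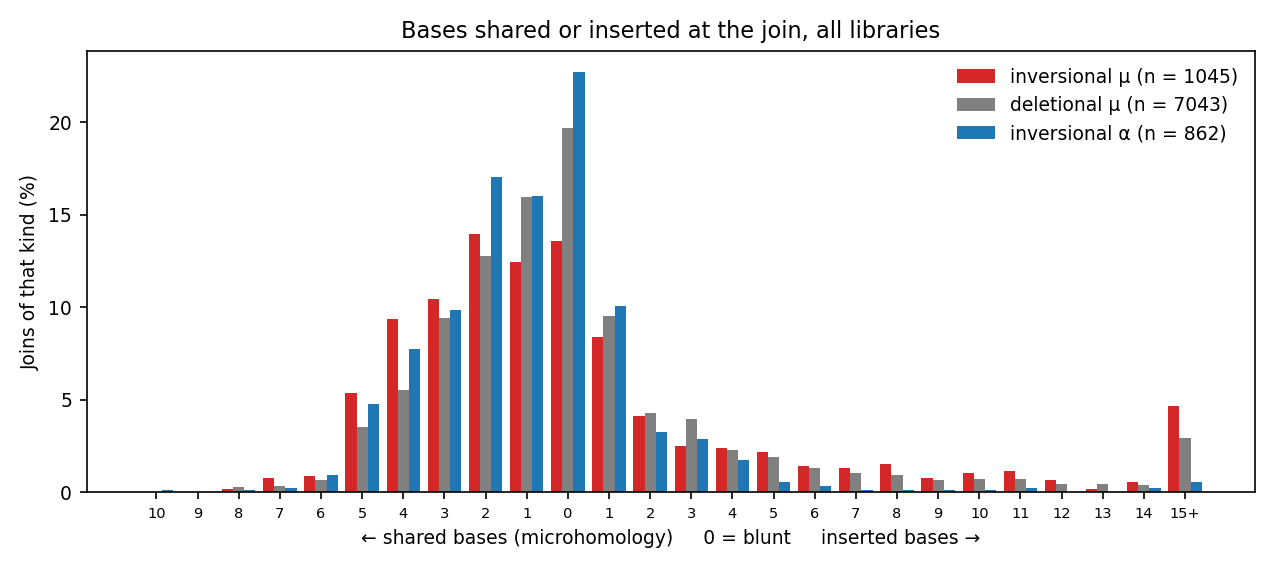
Percent of joins by bases shared (left of 0), blunt (0) or inserted (right of 0) over all libraries, for inversional μ joins (red, n = 1045), deletional μ joins (grey, n = 7043) and inversional α joins (blue, n = 862). Inversional μ joins are lower than both others at 0, higher at 4 and 5 shared bases, and higher at 15 or more inserted bases. The joins at position 114663596, with insertions of up to 30 bases, are included.

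The letters of the shared bases differed between the orientations in the way the strands of Sμ differ. Of 282 inversional joins with 3 or more shared bases, 36 shared CAGCT, 27 CCAG, 27 GCT and 23 CAGC. CAGCT was shared by 1 deletional join, and deletional joins shared GCTG 202 times and AGCTG 130 times among 1396 with 3 or more shared bases. GCTG was shared by 1 inversional join and AGCTG by 0 of 1045. In the stretch from 1000 to 2500 bases from the bait, CAGCT occurs 164 times on the + strand, where inversional prey reads, and 1 time on the − strand, where deletional prey reads.

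The printed bait holds CAGCT only at its first AGCT. A join over CAGCT therefore has to end the bait at position 114664843, as all 36 such joins did. They came from 18 of the 21 libraries and reached 29 prey positions. That bait end was the most used by inversional joins, with 61 of 1045 (5.84%), against 86 of 7043 deletional joins (1.22%). The 36 joins over CAGCT are among these 61, so its frequent use is not separate from the shared letters. The median bait end was 114664846 for inversional joins and 114664845 for deletional joins.

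Inserted bases were found at 31.7% to 35.3% of inversional μ joins by group, and were more frequent there than at inversional α joins. The percent of inversional joins with an insertion was 33.1% ± 4.02 in i3CBEc-3CBEdel, 35.3% ± 13.2 in Iadel-i3CBEc, 33.3% ± 0.772 in i3CBEc, 33.2% ± 10.8 in Iadel and 31.7% ± 8.68 in NCdel. No comparison of groups was called. Over 21 libraries the mean was 33.1% ± 8.27 for inversional and 31.4% ± 2.58 for deletional joins (difference 1.69 percentage points, adjusted sign-flip permutation p = 0.559). Against inversional α joins of the same 12 libraries it was 32.5% ± 6.15 at μ and 15.9% ± 8.81 at α. That difference of 16.5 points was seen in 12 of 12 libraries (sign-flip permutation p = 0.00052, adjusted p = 0.00104). Pooled by group, insertions were at 21.7% of inversional α joins in i3CBEc-3CBEdel, 21.8% in i3CBEc and 13.1% in NCdel. Deletional joins, pooled over all libraries, had insertions at 31.7% at μ and 22.4% at α. The higher percent at μ was therefore not particular to inversional joins. The median insertion had 4 bases at inversional μ joins, 3 at deletional μ joins and 2 at inversional α joins. Insertions of 10 or more bases made up 87 inversional μ joins (8.33%), 407 deletional μ joins (5.78%) and 10 inversional α joins (1.16%). Of the inversional μ joins with an insertion, 30 lay at 1 prey position, 114663596, with insertions of up to 30 bases, and 0 deletional joins lay there. Without that position the difference in insertions between inversional and deletional joins turned its sign, and long insertions were not counted without it.

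Part of the inserted bases are bases that other reads show next to the same prey start. For 131 of the 345 inversional μ joins with an insertion (37.97%), the inserted bases and the 16 prey bases after them were read together in the prey of another join aligned within 5 bases. Of the 188 with 4 or more inserted bases this held for 64 (34.0%), against 6 of 36 (16.7%) at inversional α joins. Prey reads of inversional μ joins had 3.81 mismatches to mm9 per 100 bases, those of deletional μ joins 3.73 and those of inversional α joins 0.962. Without such joins, the difference in insertions between inversional μ and inversional α joins was 11.8 percentage points (adjusted sign-flip permutation p = 0.00104). The part of these reads in the other differences was not tested.

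The inversional joins were spread over 722 prey positions, of which 520 were used once and 58 were used 3 or more times. The most used position stands apart, with 31 joins at 114663596 from 15 libraries and 22 bait ends, 1247 bases from the bait at the median. The next were 114662583 with 8 joins, 114662593 with 7, and 114662693 and 114663607 with 6 each. Of the joins at 114663596, 30 had inserted bases, and 0 deletional joins lay at this position. It took 7 of 276 inversional joins in i3CBEc-3CBEdel (2.54%), 13 of 199 in Iadel-i3CBEc (6.53%), 6 of 221 in Iadel (2.71%) and 5 of 211 in NCdel (2.37%). In i3CBEc it took 0 of 138, and a count of 0 there leaves room for up to 2.17%.

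The longest inserted run at this position in each group is shown in capitals, between bait and prey, because the runs end alike although the bait ends differ.
i3CBEc-3CBEdel: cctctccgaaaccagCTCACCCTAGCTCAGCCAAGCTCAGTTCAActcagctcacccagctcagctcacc
Iadel-i3CBEc: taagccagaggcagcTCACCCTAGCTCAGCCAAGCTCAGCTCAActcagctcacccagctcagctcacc
Iadel: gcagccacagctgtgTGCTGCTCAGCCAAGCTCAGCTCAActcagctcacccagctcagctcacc
NCdel: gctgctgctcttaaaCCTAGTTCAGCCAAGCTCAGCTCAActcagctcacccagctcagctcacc
All 29 runs of 4 or more inserted bases at this position ended in the same 4 letters. In the Iadel-i3CBEc read, the 28 letters before the last inserted one equal the prey letters at 114663552 to 114663579, which lie inside the densest stretch printed above. They end 16 bases before the prey start. For 26 of the 31 joins, other prey reads aligned there show the inserted letters as part of the prey. With the joins at this position left out, the difference in microhomology between inversional and deletional joins was 0.486 bases (adjusted sign-flip permutation p = 0.00024).

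Repeats of 1 prey position and bait end within a library made up 12 of the 1045 inversional joins (1.15%). A further count gave 46 pairs of prey position and bait end that were seen in more than 1 library.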

How the data were processed

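Genomic DNA junctions were read by CSR-HTGTS-seq in 21 libraries of 5 groups. The authors deposited junction tables with 1 line per kept junction, with positions in mm9 and read coordinates in bases. Per the submitters' processing notes, Bowtie2 and mm9 were used, and filter settings and molecular identifiers are not given in the sources used here. In libraries with inserted CBEs, positions at or above 114526902 on chromosome 12 were lowered by 99 bases, and 3075 reads that Iadel library 4 shares with libraries 5 and 6 were dropped from it. A microhomology column below 0 counts shared bases and above 0 inserted bases, and on every line it equals the gap between bait and prey in the read. The rule, comparisons and positions to be named (the 5 with the most joins) were chosen with earlier results of these data known. Library values of a pair of groups were set against each other by exact permutation of the labels, two-sided, and kinds of join within a library by sign-flip permutation with 100000 resamples, with Benjamini-Hochberg adjustment and a threshold of 0.05. For the interaction, labels were permuted within each background after the common insertion effect, estimated from these data, was taken out. That test is therefore approximate. The tests were checked on simulated data. Python 3.11.15, numpy 2.4.6, scipy 1.17.1 and pandas 2.3.3 were used. The Sμ block (114661000 to 114663999) and the α unit were placed by AGCT density of the prey reads. Alternatives left out libraries, runs, repeats and joins near the bait, and changed the denominator and the summaries. No genome of this build was used, so sequences come from the deposited reads.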

Additional observations from a re-analysis of the deposited data

Results flagged for a closer look

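The effect of the CBE insertion on the inversional share of μ joins differed between cells without and with Iα, by -7.18 percentage points (approximate permutation test of the difference, adjusted p = 0.00709). Inversional joins made up 10.7% ± 1.14 of μ joins in Iadel-i3CBEc and 9.49% ± 2.02 in Iadel, and 19.0% ± 1.17 in i3CBEc and 10.6% ± 2.73 in NCdel. Leaving out each of the 18 libraries in turn kept the difference between -7.83 and -6.23 points (adjusted p = 0.00383 to 0.0255 by the same permutation test). With the Sμ block alone it was -11.2 points, and with joins within 200 bases of the bait end left out it was -9.12 points. With only the Iadel and NCdel libraries of the shared run it was -7.56 points. The i3CBEc libraries share no run with the other groups, so that run and genotype cannot be told apart.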

How the results depend on the processing

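Of 197 values under settings other than a left-out library, 164 kept their direction and their side of the threshold. For i3CBEc minus NCdel, both calls missed the threshold with the Sμ block alone (share 1.49 points, orientation 10.9995 points) and with joins near the bait left out (1.83 and 9.97). With a replicate block they were 2.41 and 10.4 points (adjusted exact p = 0.3125, the smallest possible p for 3 pairs being too large to pass). The labels do not say whether libraries with the same replicate number belong together. Of 18 same-numbered pairs, 6 had a correlation over 0.1, with a range of -0.964 to 0.711, which cannot settle it. The block also turned orientation in Iadel-i3CBEc minus Iadel to -0.428 points.

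The following values turned their sign, and of them only the share of Iadel minus NCdel among junctions of the IgH window (2.57 points) passed the threshold. The interaction in share was -1.20 points with that window. With the Sμ block alone, orientation in Iadel-i3CBEc minus Iadel was -0.165, insertions there -0.520, the share of Iadel-i3CBEc minus i3CBEc -0.123, insertions in i3CBEc-3CBEdel minus i3CBEc 3.06 and the interaction in share -0.0331. With joins near the bait left out, microhomology in i3CBEc minus NCdel was 0.0348 bases, insertions in i3CBEc-3CBEdel minus i3CBEc were 0.243 points, and insertions in inversional minus deletional joins were -1.62. The distance of inversional minus deletional joins became a call there (-126 bases). Counted as joins with 2 or more shared bases, microhomology was 0.182 points in i3CBEc minus NCdel and 5.65 in i3CBEc-3CBEdel minus i3CBEc. For Iadel minus NCdel the distance was 19.75 bases with shared reads kept, 81.1 as a mean and 81.7 within 1 run, where the share was 0.948 points. Within 1 run, insertions in Iadel-i3CBEc minus Iadel were -2.57 points.

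Settings added after the data were seen turned 8 further values. With insertions read beside the prey start not counted, insertions were -0.187 points in i3CBEc minus NCdel, -0.977 in Iadel-i3CBEc minus Iadel and 0.480 in i3CBEc-3CBEdel minus i3CBEc. Without the most used position they were -0.0165 in Iadel-i3CBEc minus Iadel, -1.99 in Iadel-i3CBEc minus i3CBEc and -0.173 in inversional minus deletional joins, and the distance was 2.81 bases in the last. With only the Iadel and NCdel libraries of the shared run, the interaction in share was -0.643 points. The cause was not tested for any of these.

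Leaving out 1 library moved the share of i3CBEc minus NCdel between 1.59 and 2.00 points and the orientation between 7.42 and 8.97, with 6 of 9 calls lost in each. For Iadel minus NCdel the share ranged over -0.310 to 0.0814, the distance over -61.5 to 20.5 bases and insertions over -1.29 to 4.46 points. Insertions ranged over -4.37 to 8.78 in Iadel-i3CBEc minus Iadel, -4.48 to 8.67 in Iadel-i3CBEc minus i3CBEc, -0.403 to 4.57 in i3CBEc minus NCdel and -2.02 to 1.96 in i3CBEc-3CBEdel minus i3CBEc. Microhomology ranged over -0.00241 to 0.175 bases in Iadel-i3CBEc minus Iadel, -0.179 to 0.119 in i3CBEc minus NCdel and -0.168 to 0.0956 in i3CBEc-3CBEdel minus i3CBEc. Depth limits the values per library, since NCdel library 1 holds 12 of these joins.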
